A study of Arabidopsis thaliana with 3 samples.

Results

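Transcript levels of 10 *Arabidopsis* genes that specify flowers and floral organs were followed in seedlings of 3 genotypes. The genes were 9 MADS-box genes, *AP1*, *CAL*, *FUL*, *AP3*, *PI*, *AG*, *SHP1*, *SHP2* and *STK*, and *LFY*, which activates several of them. They were taken by their loci for their known role, with earlier results of these data known. They are 10 of the 33559 loci listed in the expression table. Each had a single entry, and each was above 0 in every library.

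In the ABC scheme of flower development, A-class genes give sepals, A- and B-class genes together give petals, B- and C-class genes together give stamens, and the C-class gene alone gives carpels. The encoded MADS-domain proteins bind DNA as complexes with SEPALLATA proteins. The unrelated transcription factor LFY switches on the A-, B- and C-class genes as a meristem changes from making leaves to making flowers. Before that change, these genes are held at low levels by Polycomb proteins and other repressors.

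Poly(A) RNA was sequenced from whole 14-day-old seedlings of the wild type Col and of the mutants *mms19-1* and *abo4*. There was 1 library per genotype, so no difference reported here has a replicate check within these data. By quantitative RT-PCR, the study reports *FT* and *AP1* higher and *FLC* lower in *mms19* and *abo4* mutants. It also describes both mutants as early flowering, and the part of developmental stage in the values below was not tested. All 3 genotypes were in the Col ecotype and were grown at 22 °C on MS agar after 3 days in the cold, with a light period of 16 h and a night of 8 h. *MMS19* encodes a component of cytosolic iron-sulfur cluster assembly, and the *mms19-1* allele carries a T-DNA insertion. *ABO4* encodes the large, DNA-synthesizing subunit of polymerase ε, and the allele used is a weak missense mutation, since complete loss kills the embryo. The study profiled both mutants because the MMS19 protein was found together with replicative DNA polymerases.

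The deposited values are FPKM, which are fragment numbers scaled to transcript length and to the size of the library. They can be compared between genes of different length. The numbers of reads behind them were recovered from the values and annotated transcript lengths. This gave 56125987 reads as the scale of the wild-type library, 51411091 for *mms19-1* and 49706530 for *abo4*. For 8 of the 10 genes the values in the 3 libraries stood in a ratio of whole numbers, to within 0.005. The multiple of these numbers taken as reads was the one nearest to an estimate from annotated transcript lengths. The reads and intervals of these 8 genes therefore depend on those lengths too. For *SHP1* and *SHP2* the reads were estimated from the length of the shortest annotated transcript. *MMS19* (AT5G48120) itself was at 10.14 FPKM in the wild-type library, 0.228 in the *mms19-1* library and 9.005 in the *abo4* library, so the library labelled *mms19-1* carried the loss its label gives. *ABO4* (AT1G08260) was at 5.03, 6.95 and 8.09 FPKM, which checks nothing, because the allele is a missense mutation.

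The sequence feature most relevant to the group is the core of the LFY binding site, CCANTG, where N is any base. It was searched on both strands in the 250 bases before the annotated start of each gene, with the RefSeq annotation of assembly TAIR10.1. The core was present in 3 of the 10 genes, *AP1*, *CAL* and *FUL*, and in 20.8% of the windows before all 27443 protein-coding genes. The strict CArG box, the A/T-rich site bound by MADS-domain proteins, was in none of the 10 windows and in 2.52% of all windows. Sequence farther upstream, within the genes and after them was not searched. A window without a match therefore does not show that the gene lacks such a site. The window of *AP1* (chr1:25986350-25986599, minus strand) is shown whole because *AP1* held the most copies, and capitals mark the LFY cores, of which the first is an overlapping pair on opposite strands.
AP1 promoter window: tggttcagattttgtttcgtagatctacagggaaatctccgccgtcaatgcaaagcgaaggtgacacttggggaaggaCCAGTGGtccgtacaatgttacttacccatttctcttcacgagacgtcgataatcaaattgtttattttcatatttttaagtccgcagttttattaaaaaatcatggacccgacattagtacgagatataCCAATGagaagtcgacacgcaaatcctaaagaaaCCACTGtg

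One copy of the core lay in a stretch that these 3 genes shared, and its first 30 bases are set out to let the copies be compared. Capitals mark the LFY core. The stretch began 42 bases before the start of *AP1* (chr1:25986362-25986391), 97 bases before *CAL* (chr1:9103712-9103741) and 126 bases before *FUL* (chr5:24506366-24506395), each on the minus strand.
AP1: CCAATGagaagtcgacacgcaaatcctaaa
CAL: CCAATGagaagtcgacaacacatcctagaa
FUL: CCAATGaggactcgacaacacatcaaatgg
*AP1* and *CAL* were identical at all 17 of the first 17 bases, and *FUL* matched each of them at 15. This length ends where *AP1* and *CAL* first differ, so their full identity over it follows from the length chosen. Counted position by position without gaps over all 30 bases, *CAL* and *FUL* were the closest pair, with 23 identical bases. *AP1* and *CAL* followed with 21, and *AP1* and *FUL* with 16. After the first 17 bases *AP1* and *CAL* both hold the run atccta, shifted by a base between them. The order of the pairs may therefore depend on counting without gaps, and a gapped alignment was not made. The string CCAATGAGNANTCGACA, which was written from these copies after they were seen, occurred in 3 of the 27443 windows, those of *AP1*, *CAL* and *FUL*. A match to these letters is a description of the sequence and does not show that LFY binds there.

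**Figure D1:**
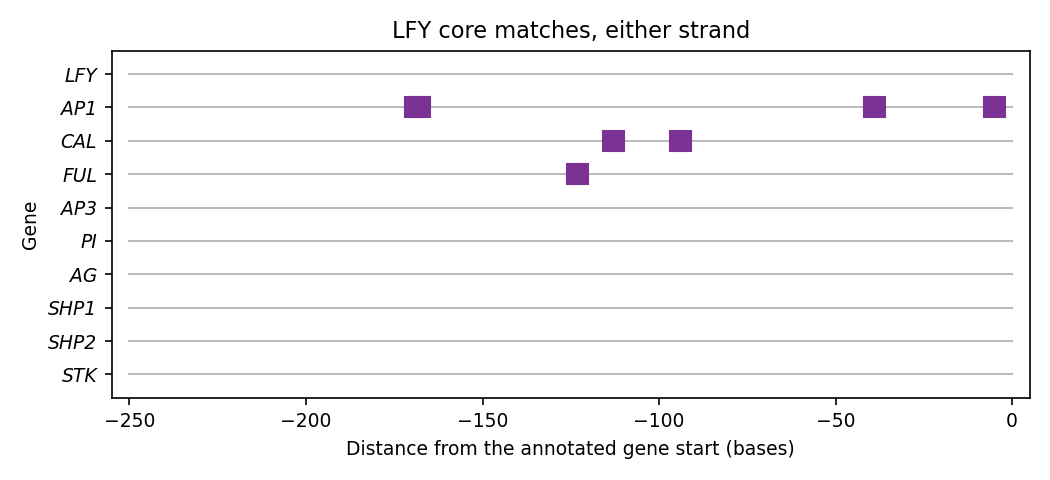
Positions of the LFY core, on either strand, in the 250 bases before the annotated start of each gene (x axis, distance from the start in bases; 1 line per gene; filled boxes are matches). Boxes appear on the lines of *AP1*, *CAL* and *FUL* and on no other line, and the leftmost box of *AP1* is the overlapping pair.

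The first comparison asks where these genes stood in *mms19-1* seedlings beside the wild type. The level was higher by over 2-fold in *mms19-1* for 7 of the 10 genes, which were *LFY*, *AP1*, *FUL*, *AP3*, *PI*, *AG* and *SHP2*, and no gene was lower by over 2-fold. *CAL* and *STK* were higher by less than this limit, and *SHP1* was at 0.876 of the wild type. The ratios were taken as log2 of FPKM + 0.1, a scale on which ratios of weakly expressed genes come out smaller than they are, and the limit was 1 or -1 on this scale. *LFY*, *CAL* and *STK*, the 3 genes under 0.1 FPKM in the wild type, could not fall below the lower limit on this scale. The median log2 ratio of the 10 genes was 1.34, against -0.01 over the 26416 loci above 0 in at least 1 library. Of those loci, 2.38% were higher by over 2-fold and 1.64% were lower, and of the 11286 loci with a mean of 0.1 to 10 FPKM, the range that holds all 10 genes, 3.94% were higher. This mean includes the mutant libraries, and *LFY*, *CAL* and *STK* reached the range only through them, so it does not match these genes by wild-type level. For 5 genes, *LFY*, *AP1*, *AP3*, *PI* and *SHP2*, the whole 95% exact interval of the ratio of reads lay above 2-fold, as it did for 0.634% of loci. These intervals cover counting error in single libraries only.

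In *abo4*, asked in the same way, 8 of the 10 genes were higher than in the wild type by over 2-fold. The 8 were *LFY*, *AP1*, *CAL*, *AP3*, *PI*, *AG*, *SHP2* and *STK*, while *FUL* and *SHP1* were higher by less, and none was lower. The median log2 ratio was 1.65, against 0.00 over all loci above 0. Over all those loci 3.87% were higher by over 2-fold and 2.58% were lower, and 6.61% were higher among loci of 0.1 to 10 FPKM. Again, *LFY*, *CAL* and *STK* reached that range only through the mutants. The interval of the reads lay wholly above 2-fold for 5 genes, *LFY*, *AP1*, *PI*, *AG* and *SHP2*, and for 1.45% of loci. Both mutants were compared with the same wild-type library, so the 6 genes past the limit in each of them, *LFY*, *AP1*, *AP3*, *PI*, *AG* and *SHP2*, are not independent observations. With 1 FPKM added in place of 0.1, only *AP3* in *mms19-1*, and *PI* and *AG* in *abo4*, remained past the limit.

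**Figure D2:**
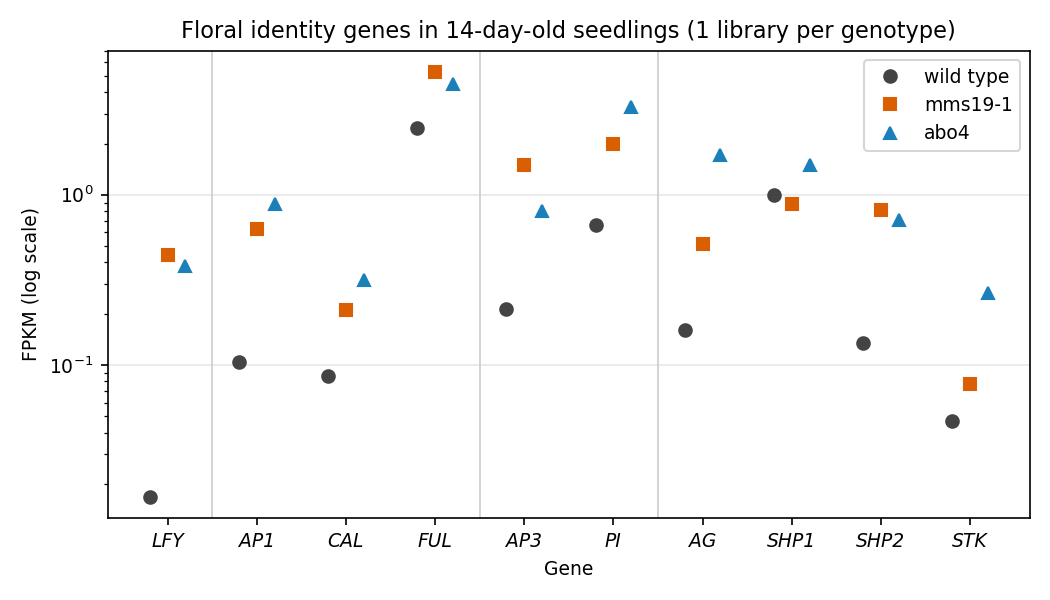
FPKM (y axis, log scale) of the 10 genes in the wild type, *mms19-1* and *abo4*, with 1 point per library and no error bar because each genotype has 1 library; vertical lines separate *LFY*, *AP1* and its relatives, the B-class genes, and *AG* and its relatives. The wild-type point is the lowest of the 3 for every gene but *SHP1*, and *FUL* is the highest gene in each genotype.

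Levels were low throughout. The 10 genes together summed to 4.90 FPKM and 247 reads in wild-type seedlings, 12.3 FPKM and 581 reads in *mms19-1*, and 14.3 FPKM and 675 reads in *abo4*. In the wild type the order by FPKM ran from *FUL* over *SHP1*, *PI*, *AP3*, *AG*, *SHP2*, *AP1*, *CAL* and *STK* to *LFY*, and neighbours from *AP3* down to *CAL* rested on 4 to 12 reads. *FUL* also led in both mutants, followed by *PI*. The seedlings were whole, so fewer cells of a type and less RNA per cell cannot be told apart in any of these values.

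*LFY* (AT5G61850, chromosome 5, 24844248 to 24846989, plus strand) was the lowest of the 10 genes in the wild type, at 0.0168 FPKM, which was 1 read. It stood at 0.441 FPKM in *mms19-1*, which was 24 reads, and at 0.380 FPKM in *abo4*, which was 20 reads. Both mutant libraries were therefore well above a wild-type library that held almost no *LFY* reads. The FPKM ratio was 26.2 in *mms19-1* (95% exact interval 4.27 to 1077) and 22.6 in *abo4* (3.61 to 936), with log2 ratios of 2.21 and 2.04. The upper ends are this wide because of the single wild-type read. Between the mutants the level was alike to within counting error, with *abo4* at 0.862 of *mms19-1* (0.452 to 1.63).

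Among *AP1* and its 2 close relatives, *AP1* (AT1G69120, chromosome 1, 25982294 to 25986349, minus strand), the A-class gene that sets floral meristem identity and sepal and petal fate, was at 0.104 FPKM in the wild type, against 0.627 in *mms19-1* seedlings and 0.884 in *abo4* seedlings. These levels were 6, 33 and 45 reads. Each mutant library lay above the wild type, by 6.004-fold (2.48 to 17.5) in *mms19-1* and 8.47-fold (3.60 to 24.3) in *abo4*. *AP1* moved from rank 22668 of 26416 loci by FPKM in wild-type seedlings to 20476 in *mms19-1* and 19998 in *abo4*.

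*CAL* (AT1G26310, chromosome 1, 9099994 to 9103644, minus strand), the close relative of *AP1* that overlaps it in function, stood at 0.0855 FPKM in wild-type seedlings, 0.210 in *mms19-1* and 0.314 in *abo4*. With 4, 9 and 13 reads, the direction was that of *AP1* but the counts were small. The ratio to the wild type was 2.46 in *mms19-1* (0.686 to 10.9), an interval that includes equal levels, and 3.67 in *abo4* (1.13 to 15.5). On the scale of FPKM + 0.1 the log2 ratios were 0.74 and 1.16, which puts only *abo4* past the limit. *AP1* and *CAL* also share sequence. Of the 45-base windows of their longest transcripts, the length of the reads, 6.01% of those of *AP1* and 7.37% of those of *CAL* came within 2 mismatches, the number allowed in the alignment, of another of 40 MADS-box and *LFY* transcripts. The following window, from the part that codes for the MADS domain, is shown because reads from it cannot be assigned to either gene, and the copies do not differ at any base.
AP1, transcript bases 267 to 311: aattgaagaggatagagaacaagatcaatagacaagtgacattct
CAL, transcript bases 154 to 198: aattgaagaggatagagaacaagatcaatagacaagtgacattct
How such reads were counted is not given in the sources used here, so the levels of *AP1* and *CAL* are uncertain to that extent.

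*FUL* (AT5G60910, chromosome 5, 24502434 to 24506269, minus strand), which acts with *AP1* and *CAL* in meristem identity and later in the fruit valves, is also expressed in leaves and stem. It was the best measured of the 10, with 2.47 FPKM in wild-type seedlings, 5.27 in *mms19-1* and 4.47 in *abo4*, from 126, 246 and 202 reads. Both mutants exceeded the wild type, and on either side of the 2-fold limit. The ratio was 2.13 in *mms19-1* (1.71 to 2.66) and 1.81 in *abo4* (1.44 to 2.28), so the 2 intervals overlap and the limit falls inside each. Of its windows of read length, 0.483% came within 2 mismatches of a relative.

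The B-class genes *AP3* (AT3G54340, chromosome 3, 20119140 to 20121314, minus strand) and *PI* (AT5G20240, chromosome 5, 6828904 to 6831515, plus strand) encode partners that work only as a heterodimer in petals and stamens. *AP3* was at 0.214 FPKM in wild-type seedlings, 1.495 in *mms19-1* and 0.797 in *abo4*, from 10, 64 and 33 reads. *PI* was at 0.660, 1.99 and 3.28 FPKM, from 33, 91 and 145 reads. Both genes were lowest in the wild type, but *AP3* was highest in *mms19-1* and *PI* in *abo4*.

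The ratio to the wild type for *AP3* was 6.99 in *mms19-1* (3.56 to 15.3) and 3.73 in *abo4* (1.79 to 8.48), with log2 ratios of 2.34 and 1.51. For *PI* it was 3.01 (2.001 to 4.63) and 4.96 (3.38 to 7.48), with log2 ratios of 1.46 and 2.15. The 2 genes thus went different ways between the mutants, *AP3* being at 0.533 of its *mms19-1* level in *abo4* (0.339 to 0.824) and *PI* at 1.65 (1.26 to 2.17). Within a library, *AP3* stood at 0.324 of the FPKM of *PI* for the wild type (0.143 to 0.673), at 0.752 for *mms19-1* (0.538 to 1.05) and at 0.243 for *abo4* (0.162 to 0.357). The interval in *mms19-1* lay above that in *abo4*, while the wild-type interval overlapped both. No window of read length in either gene came within 2 mismatches of a relative.

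*AG* (AT4G18960, chromosome 4, 10382856 to 10388539, plus strand), the C-class gene for stamens, carpels and the end of meristem growth, was at 0.161 FPKM in wild-type seedlings, 0.513 in *mms19-1* and 1.71 in *abo4*, from 12, 35 and 113 reads. The 3 libraries were spread out in that order, and the log2 ratio in *abo4* was 2.80. This was the largest of the 10 genes in *abo4* on the scale of FPKM + 0.1, while the plain FPKM ratio was larger for *LFY*, at 22.6. The FPKM ratio was 3.18 in *mms19-1* (1.61 to 6.74) and 10.6 in *abo4* (5.85 to 21.2). By FPKM it was the third of the 10 genes in *abo4*, after *FUL* and *PI*.

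*SHP1* (AT3G58780, chromosome 3, 21738160 to 21742517, plus strand) and *SHP2* (AT2G42830, chromosome 2, 17820114 to 17824013, plus strand) are near-duplicates of the *AG* lineage that act together in carpels, ovules and the opening of the fruit. *SHP1* was at 1.00 FPKM in wild-type seedlings, 0.878 in *mms19-1* and 1.504 in *abo4*, from an estimated 46, 37 and 61 reads. *SHP2* was at 0.134, 0.815 and 0.709 FPKM, from an estimated 7, 39 and 33 reads. *SHP1* was the only one of the 10 genes with its lowest level in a mutant, and *SHP2* had both mutants well above the wild type.

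For *SHP1* the ratio to the wild type was 0.876 in *mms19-1* (0.554 to 1.38), with a log2 ratio of -0.17, and 1.499 in *abo4* (1.00 to 2.25), with 0.54. For *SHP2* it was 6.08 (2.69 to 16.1) and 5.29 (2.32 to 14.3), with log2 ratios of 1.97 and 1.79. The balance of the pair differed between the libraries, *SHP2* being at 0.134 of the FPKM of *SHP1* for the wild type (0.0509 to 0.298), 0.928 for *mms19-1* (0.576 to 1.496) and 0.471 in *abo4* (0.299 to 0.732). Each mutant's interval lay above that of the wild type. The intervals of this pair rest on estimated reads. With the longest annotated transcript, the estimate for *SHP1* became 109, 87.8 and 145 reads, which would make its intervals narrower.

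The closest stretch of read length in the pair is shown because it is the place where reads of the 2 genes are easiest to confuse. It lies in the part coding for the MADS domain, and capitals mark the bases that differ.
SHP1, transcript bases 756 to 800: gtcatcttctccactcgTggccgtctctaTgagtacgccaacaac
SHP2, transcript bases 509 to 553: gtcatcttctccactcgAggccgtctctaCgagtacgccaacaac
Such windows, within 2 mismatches of a relative, made up 0.143% of *SHP1* and 0.244% of *SHP2*. Nearly all their windows were therefore distinct from the transcripts compared. Other transcripts and the rest of the genome were not searched.

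*STK* (AT4G09960, chromosome 4, 6236375 to 6241281, minus strand), the D-class gene for ovule identity, was at 0.0470 FPKM in wild-type seedlings, 0.0770 in *mms19-1* and 0.266 in *abo4*. These were 2, 3 and 10 reads, so only *abo4* stood apart. With the longest annotated transcript the estimate for *STK* became 3.9, 5.8 and 19.3 reads, which would make its intervals narrower. The ratio was 1.64 in *mms19-1* (0.188 to 19.6), where a difference was not detectable at this depth, and 5.65 in *abo4* (1.20 to 53.0). The FPKM of *AG* was 3.42 times that of *STK* in wild-type seedlings (0.762 to 31.5), 6.66 times in *mms19-1* (2.1 to 33.9) and 6.45 times in *abo4* (3.38 to 13.8).

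**Figure D3:**
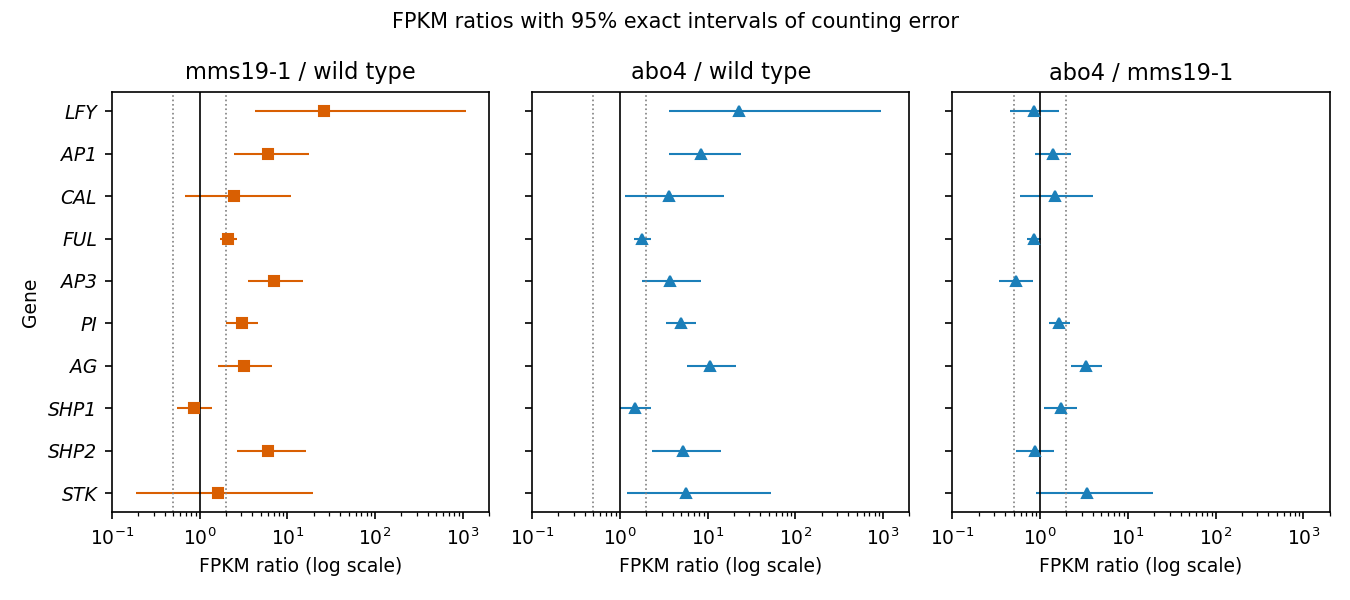
FPKM ratios (x axis, log scale) of *mms19-1* to the wild type, *abo4* to the wild type and *abo4* to *mms19-1* for the 10 genes, with bars for the 95% exact interval of the ratio of reads, a solid line at equal levels and dotted lines at 2-fold lower and higher. In the first 2 panels 9 and 10 genes lie to the right of equal levels, and in the third panel 6 lie to the right and 4 to the left.

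A direct comparison of *abo4* with *mms19-1*, which does not use the wild-type library, asks where the mutants differed. In *abo4*, 2 of the 10 genes, *AG* and *STK*, were higher by over 2-fold, and none was lower by over 2-fold. Over all loci above 0, 3.6% were higher by over 2-fold in *abo4* and 3.26% were lower, with 6.24% higher among loci of 0.1 to 10 FPKM. Of the 2 genes, *STK* reached that range only through *abo4*. *AG* was 3.34-fold higher (2.27 to 5.03, log2 ratio 1.56) and was the only one of the genes whose interval lay wholly above 2-fold, beside 1.25% of loci. *STK* was 3.45-fold higher, but on 3 and 10 reads its interval of 0.888 to 19.5 includes equal levels. That interval rests on the transcript lengths used. With the longest annotated transcript the *STK* estimate became 5.8 reads in *mms19-1* and 19.3 in *abo4*, which would make the interval narrower. Whether it includes equal levels is therefore not settled. The intervals of *PI* and *SHP1* lay above equal levels and that of *AP3* below, each by less than the limit on the log2 scale. For *LFY*, *AP1*, *CAL*, *FUL* and *SHP2* the interval included equal levels, which does not show that they were equal. The median log2 ratio of the 10 genes was 0.43, against 0.02 over all loci above 0.

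Genes that act around the floral identity genes were read from 5 lists, which together hold 67 loci, of which 65 were above 0. The lists too were chosen with earlier results of these data known. Over these 65, *mms19-1* had 9 higher by over 2-fold and 4 lower, and *abo4* had 8 higher and 4 lower, to be read beside 2.38% and 1.64% of all loci in *mms19-1* and 3.87% and 2.58% in *abo4*. The lists overlap, since several regulators and the SEPALLATA genes are themselves MADS-box genes.

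Of the 16 upstream regulators, 1 was higher by over 2-fold in *mms19-1* and 2 in *abo4*, with medians of 0.07 and 0.26. The gene past the limit in both was *FT* (AT1G65480), the mobile signal that induces flowering, at 0.274 FPKM in wild-type seedlings, 5.17 in *mms19-1* and 2.75 in *abo4*, or 10, 173 and 89 reads. The other, *TSF*, the close relative of *FT*, had no value above 0 in wild-type or *mms19-1* seedlings and had 4 reads in *abo4*, and is named because it made up the count. *SOC1* (AT2G45660), a MADS-box integrator of flowering signals that acts upstream of *LFY*, stood at 45.9, 81.0 and 63.1 FPKM, with log2 ratios of 0.82 and 0.46. *AGL24*, the partner of *SOC1*, was at 15.4, 16.0 and 21.2 FPKM. These 2 genes were far more abundant than any of the 10 identity genes and stayed within the limit.

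Of 12 repressors, *FLC* (AT5G10140), which represses *FT* and *SOC1*, was the only one lower by over 2-fold. It was at 7.03 FPKM in wild-type seedlings, 1.11 in *mms19-1* and 0.223 in *abo4*, with log2 ratios of -2.55 and -4.46. *TFL1*, which keeps the shoot tip from becoming a flower, was higher by over 2-fold in *mms19-1*, at 4.14 FPKM beside 1.73 in the wild type and 1.99 in *abo4*. It was named after its values were seen, as the only repressor past the upper limit. The medians of the list were -0.08 and -0.11. *SVP*, the MADS-box partner of *FLC*, at 89.8, 78.8 and 71.2 FPKM, and *SEU*, a corepressor of *AG*, at 32.8, 31.3 and 28.5, were the most abundant and stayed within the limit.

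The SEPALLATA genes supply the cofactors with which the A-, B- and C-class proteins form their complexes. In each mutant 3 of the 4 were higher by over 2-fold, and these were *SEP1*, *SEP2* and *SEP3*. *SEP1* (AT5G15800) was at 0.134 FPKM in wild-type seedlings, 4.16 in *mms19-1* and 2.46 in *abo4*. *SEP2* (AT3G02310) was at 0.0147, 1.53 and 2.21 FPKM, from 1, 95 and 133 reads. *SEP3* (AT1G24260) was at 1.93, 6.09 and 12.6 FPKM. The 3 genes were lowest in the wild type, with *SEP1* highest in *mms19-1* and the other 2 highest in *abo4*. *SEP4* (AT2G03710), which is known to be expressed outside flowers as well, was at 11.0, 16.4 and 10.7 FPKM and stayed within the limit.

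Genes that act downstream in flower and fruit patterning were mostly too low to be compared, with only 3 of 13 at a mean of at least 1 FPKM. Of the 13, 11 were above 0, and 1 was higher and 1 lower by over 2-fold in *mms19-1*, against 0 higher and 1 lower in *abo4*, with medians over those 11 of -0.09 and 0.14. The gene higher in *mms19-1* was *CRC*, a carpel and nectary gene that *AG* and *SHP* proteins regulate, on 1 wild-type read and on 6 reads in *mms19-1* and 5 in *abo4*. The lower ones were *HEC3*, a gene of the female reproductive tract, on 10, 0 and 4 reads, and, in *abo4*, *NAP*, a target of AP3 and PI that is also a leaf senescence gene. *NAP* was the most abundant of the list at 90.7, 78.2 and 33.7 FPKM, before *ALC*, a fruit opening gene, at 7.14, 9.81 and 8.65 FPKM. *CRC* and *HEC3* were named after their values were seen, since they made up the counts. The AG targets *SPL/NZZ* and *KNU* and the jasmonate gene *DAD1* gave 1 read among the 9 values of the 3 libraries, and are named, after their values were seen, because they could not pass the limit at such levels.

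**Figure D4:**
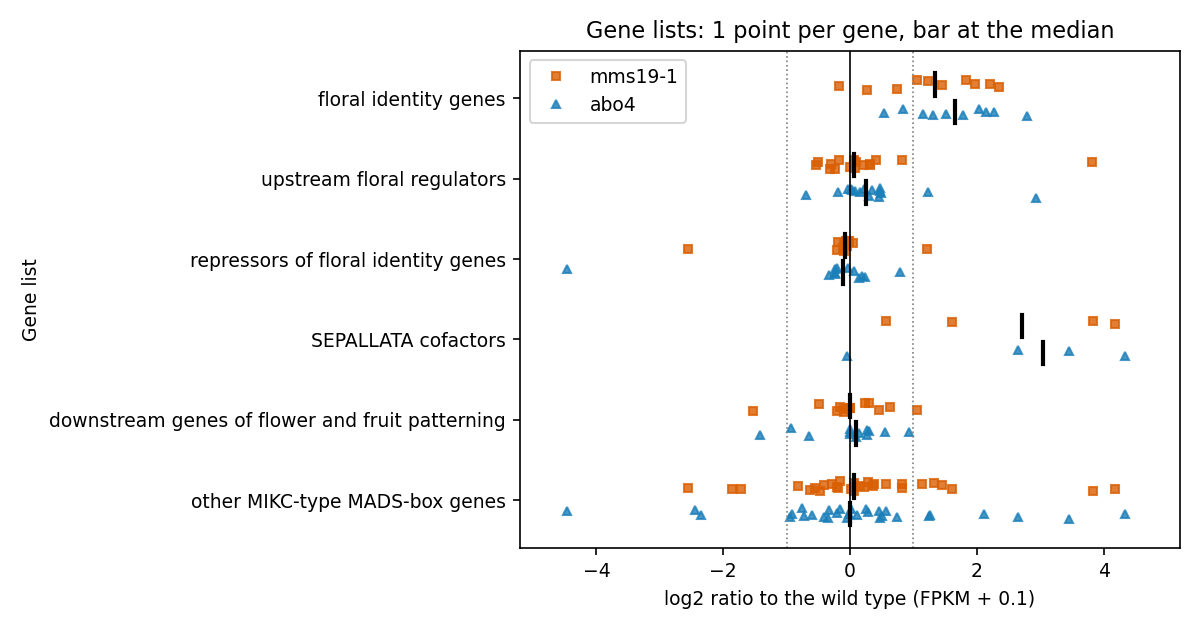
log2 ratio of FPKM + 0.1 to the wild type (x axis) for every gene of the identity group and of 5 lists (rows), with squares for *mms19-1*, triangles for *abo4*, black bars at the medians and dotted lines at the 2-fold limits; points are shifted vertically for legibility. The medians of the identity genes and of the SEPALLATA genes lie beyond 1, at 1.34 and 1.65 and at 2.72 and 3.05, and those of the other lists lie between -0.11 and 0.26.

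The 10 genes were also set beside 30 other genes of the same MIKC type of MADS-box gene. Of the 30, 6 were higher and 3 were lower by over 2-fold in each mutant, and their medians were 0.06 in *mms19-1* and 0.00 in *abo4*. Besides *SEP1*, *SEP2* and *SEP3*, only *AGL71*, a relative of *SOC1*, was higher in both, at 0.140 FPKM in wild-type seedlings, 0.502 in *mms19-1* and 0.474 in *abo4* from an estimated 3, 10 and 9 reads. The lower genes in both were *FLC* and its relatives *MAF4* and *MAF5*, with log2 ratios of -1.72 and -2.45 for *MAF4* and of -1.86 and -2.34 for *MAF5*. The remaining genes past the upper limit, named to complete the counts after their values were seen, were *AGL17* and *TT16* in *mms19-1* and *AGL6* and *AGL79* in *abo4*.

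Markers of other tissues were read to see what the seedlings contained. Of 11 anther and pollen genes, 8 were above 0, none was higher by over 2-fold in a mutant and 1 was lower in *abo4*. Their summed level was 1.05 FPKM in wild-type seedlings, 1.08 in *mms19-1* and 0.877 in *abo4*, and *DYT1*, *MYB80* and *ATA7* were listed at 0 in all 3 libraries. The most reads came from *VGD1*, a pollen tube gene, with 38, 34 and 26, followed by *PGA4*, a pollen polygalacturonase gene, with 32, 28 and 21. By FPKM *PGA4* was the most abundant, and it did not pass 0.392 FPKM in any library. The ovule marker *INO* was listed at 0 throughout, while *BEL1*, which is also expressed outside ovules, was at 15.9, 16.2 and 12.9 FPKM. *DYT1*, *MYB80*, *ATA7* and *INO*, the markers at 0 in every library, and *VGD1* were named after their values were seen. The part of anther or ovule cells in the levels of the identity genes was not tested.

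Leaf and root markers were present at like levels, with *RBCS1A*, the Rubisco small subunit, between 16750 and 19170 FPKM and the root gene *PYK10* between 990 and 1072. Shoot meristem genes were higher in *abo4*, by less than the limit, except *CLV3*, the stem cell signal, which had 1 read in the 3 libraries. *STM*, which keeps meristem cells undifferentiated, was at 5.41, 5.19 and 8.02 FPKM, with *abo4* at 1.48 of the wild type (1.31 to 1.68). *KNAT1*, which acts with *STM*, was at 14.2 FPKM in wild-type seedlings, 13.8 in *mms19-1* and 18.5 in *abo4*, with *abo4* at 1.30 of the wild type (1.22 to 1.40). *STM* and *CLV3* were named after their values were seen, and the part of meristem cells in the levels of the identity genes was not tested. None of 6 reference genes was past the limit, and *GAPC2*, the most abundant, had log2 ratios of 0.11 and 0.12.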

How the data were processed

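Poly(A) RNA of 3 seedling samples was sequenced, with 1 library per genotype. According to the labels and the submitters' processing notes, the authors aligned 45-base reads to TAIR10 with TopHat2 2.0.12 and Bowtie, allowing up to 2 mismatches, and deposited FPKM values from Cufflinks 2.0.1 and Cuffdiff, without log transformation. The handling of reads aligning at several places is not given in the sources used here.

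The table held 34133 entries at 33559 loci. Of several entries of a locus, the one with the larger mean was kept, which left out 574. Ratios were log2 of FPKM + 0.1 with limits of 1 and -1, and with 1 library per genotype no test was made. Reads per value were recovered from whole-number ratios between the 3 libraries, with the multiple set by annotated transcript lengths. The settings were a fragment mean of 200 nt, a fragment SD of 80 nt and a minimum of 49 nt. Under these settings 95.9% of 98 genes of 60 to 150 nt gave reads within 0.05 of a whole number. With a minimum of 45 nt, the length of the reads, 17.0% of 94 such genes did. The share therefore depends on this minimum and is not independent support for it. Why 49 nt gave more whole numbers than the read length was not tested. Intervals of ratios are 95% exact (Clopper-Pearson) intervals and cover counting error only. The ratio limits and intervals were tested on simulated libraries. Only genes with more reads than most of the floral identity genes were changed there, and the recovery of reads was not simulated. The simulation therefore does not show how the calculation performs at the low reads of most of these genes.

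Positions, sequences and transcript lengths came from the RefSeq annotation of TAIR10.1, since the table holds no coordinates. Its gene models can differ from those the authors used. Of 106 symbols, 103 matched the RefSeq names of their loci. The study names the *mms19* allele differently in different places, and the label *mms19-1* was followed.

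The 10 genes and all lists were chosen with earlier results of these data known. Named genes were the 10 genes, *MMS19* and *ABO4*, of each list every gene past the limit in both mutants in the same direction and the 2 with the highest mean FPKM, and of each marker class the highest gene. Genes named outside this rule are said to be so. No gene of like pattern was sought, since 3 libraries give no usable measure of likeness. Alternatives were other added constants, a 4-fold limit, a floor on the mean FPKM, ratios centred on the median, the sum of entries and a limit on the interval of reads. Python 3.11.15, numpy 2.4.6, pandas 2.3.3, scipy 1.17.1 and matplotlib 3.10.9 were used.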

Additional observations from a re-analysis of the deposited data

Results flagged for a closer look

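Among the genes named above, *SHP1*, *AGL79*, *KNAT1*, *STM*, *SEP4* and *BEL1* had ratios to the wild type of opposite sign in the 2 mutants. The difference between the mutants was not tested, since each genotype has 1 library. For each of these genes, the 95% exact interval of the ratio included equal levels in one of the mutants. That mutant was *abo4* for *SEP4* and *mms19-1* for the others, so the sign there is not settled by the reads. The log2 ratio in *abo4* exceeded that in *mms19-1* by 0.71 for *SHP1*, which was at 0.878 FPKM in *mms19-1* and 1.504 in *abo4*. It exceeded it by 1.79 for *AGL79*, a MADS-box gene related to *AP1*, on 2 and 20 reads, and by 0.42 for *KNAT1*, at 13.8 and 18.5 FPKM. The excess was 0.62 for *STM*, at 5.19 FPKM in *mms19-1* and 8.02 in *abo4*. The difference of *abo4* minus *mms19-1* was -0.62 for *SEP4*, at 16.4 FPKM in *mms19-1* and 10.7 in *abo4*, and -0.33 for *BEL1*, at 16.2 and 12.9 FPKM. Both mutants were compared with the same wild-type library.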

How the results depend on the processing

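The direction of every ratio of the 10 genes was kept under each alternative that gave it a value, and the counts of genes past the limit were what moved. With 1 FPKM added, 1 of the 10 genes was higher in *mms19-1* (7 with 0.1 FPKM), 2 in *abo4* (8) and 0 in *abo4* against *mms19-1* (2), and 13 of 30 log2 ratios moved out of the counting interval. With a 4-fold limit the counts were 2, 4 and 0. A mean of at least 1 FPKM left *FUL*, *PI* and *SHP1*, of which 2, 1 and 0 were higher. *PI*, at 0.660 FPKM in wild-type seedlings, passed this floor only through the mutants. Requiring the interval of reads beyond 2-fold gave 5 in *abo4* and 1 in *abo4* against *mms19-1*. With 0.01 FPKM added, a mean of at least 0.1 FPKM, centred ratios or summed entries, all 30 ratios stayed within the counting interval. *LFY*, *CAL* and *STK* passed the floor of 0.1 FPKM only through the mutants. Over the lists, the 9 genes higher in *mms19-1* became 12 with 0.01 FPKM added and 4 with 1 FPKM added. They became 3 with a 4-fold limit and 4 by the interval of reads. The 4 genes lower in *mms19-1* became 8 with 0.01 FPKM added and 1 with a 4-fold limit. The 8 higher in *abo4* became 12 with 0.01 FPKM added and 4 with 1 FPKM added. They became 5 with a 4-fold limit, 4 with a mean of at least 1 FPKM and 5 by the interval of reads. The 4 genes lower in *abo4* became 8 with 0.01 FPKM added. Added constants act on genes of low level by construction; for the other changes the cause was not tested. No paired analysis was possible because each genotype has 1 library, and for the same reason none could be left out. Depth limits *LFY*, *CAL* and *STK* most, with 1 to 4 wild-type reads.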
